A study of Mus musculus with 15 samples.

Results

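Mitosis genes encode the proteins that carry a cell through division, and 32 of them, given by symbol, were followed among the 23420 genes counted in each table. The members were the mitotic kinases and cyclins, the chromosomal passenger complex, the spindle checkpoint, partners of the anaphase-promoting complex, the centromere and kinetochore, spindle motors, the machinery of cytokinesis, and the chromosome proteins Top2a and Mki67. All 32 were found in both tables and passed the filter on low counts in both. Every group was made of whole lungs of wildtype CD1 mouse embryos, an outbred strain, with 3 replicate libraries. Lungs explanted at E12.5 (days of gestation) and kept for 48 h in culture formed a high pressure group, with 3 lungs pooled per library, and a low pressure group, with 6 lungs pooled per library. Lungs taken without culture gave the course in the embryo, at E12.5 with 6 lungs per library and at E13.5 and E14.5 with 3. The series asks how transmural pressure, the difference in pressure across the wall of the airways, bears on lung branching. Nothing in the labels tells whether pools were drawn from different litters or cultures, so a p-value here speaks of the spread among pools, which may be technical.

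Entry into mitosis is driven by the kinase Cdk1 bound to a cyclin, and exit follows when the anaphase-promoting complex, switched on by Cdc20, marks cyclin B for destruction. Transcripts of these genes accumulate in G2 and mitosis and are scarce in resting cells, so they are widely used as a reading of how many cells are dividing. In the embryonic lung both the epithelial tips and the mesenchyme around them divide while the airways branch. In bulk tissue fewer dividing cells and less mitotic RNA per cell cannot be told apart.

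Promoters of these genes are known to share a cell cycle genes homology region (CHR, the letters TTTGAA or TTTAAA), bound by the MuvB core of the DREAM and B-Myb complexes, and CCAAT boxes, bound by NF-Y. RefSeq promoters of GRCm38.p6, from 250 bases before to 50 bases after the start, were matched by symbol to 27 of the 32 members. They were searched on both strands. A CHR in either form stood in 23 of the 27 members (85.2%), against 30.6% of the 27025 genes in the promoter table. TTTGAA was in 20 of the 27 (74.1%, against 20.2% of all genes), TTTAAA in 9 (33.3%, against 14.9%) and CCAAT in 20 (74.1%, against 41.1%). Among the 10 matched members called higher at high pressure in the comparison given further on, 10 held a CHR, as did 13 of the 16 matched members that did not pass. Promoters of 4 members are printed. Cdc20 and Cdca8 had the largest positive fold changes, Ccnb2 is the cyclin that was called, and Bub1 is the member that was lower. Birc5, at 0.62 on the log2 scale, stood above Ccnb2, at 0.53, and is not printed. Its window held TTTAAA 220 bases before the start and neither TTTGAA nor CCAAT. The printed windows do not stand for all members. Capitals mark either CHR form and the CCAAT box on either strand; all windows lie on the minus strand of the genome and are written 5′ to 3′.
Cdc20, chr4:118437294-118437593: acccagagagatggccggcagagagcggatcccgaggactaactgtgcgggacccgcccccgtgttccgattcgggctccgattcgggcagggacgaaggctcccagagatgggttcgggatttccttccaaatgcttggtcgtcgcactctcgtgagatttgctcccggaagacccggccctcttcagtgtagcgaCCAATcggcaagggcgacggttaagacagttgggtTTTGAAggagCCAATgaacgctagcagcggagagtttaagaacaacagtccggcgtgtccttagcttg
Cdca8, chr4:124936868-124937167: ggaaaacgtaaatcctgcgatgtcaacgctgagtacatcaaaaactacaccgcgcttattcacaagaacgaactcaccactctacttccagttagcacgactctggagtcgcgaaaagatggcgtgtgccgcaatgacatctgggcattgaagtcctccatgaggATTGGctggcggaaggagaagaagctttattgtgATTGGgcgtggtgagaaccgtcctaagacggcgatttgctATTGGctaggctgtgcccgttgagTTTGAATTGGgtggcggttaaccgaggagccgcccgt
Ccnb2, chr9:70421505-70421804: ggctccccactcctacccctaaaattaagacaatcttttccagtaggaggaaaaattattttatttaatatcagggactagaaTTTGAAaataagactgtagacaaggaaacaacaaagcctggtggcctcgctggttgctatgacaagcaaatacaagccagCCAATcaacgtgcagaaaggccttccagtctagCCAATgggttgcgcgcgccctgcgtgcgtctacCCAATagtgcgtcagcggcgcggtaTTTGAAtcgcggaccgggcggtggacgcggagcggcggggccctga
Bub1, chr2:127831810-127832109: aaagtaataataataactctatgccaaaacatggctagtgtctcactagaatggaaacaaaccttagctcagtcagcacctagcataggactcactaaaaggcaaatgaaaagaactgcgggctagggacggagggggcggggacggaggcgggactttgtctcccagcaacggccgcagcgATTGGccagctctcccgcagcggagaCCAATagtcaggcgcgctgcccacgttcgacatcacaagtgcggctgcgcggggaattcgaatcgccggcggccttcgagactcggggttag
In the Cdc20 window the CHR letters begin 18 bases before the start, between CCAAT boxes that begin 53 and 8 bases before it. The Cdca8 window holds TTTGAA just after the start, where it overlaps a CCAAT box read on the other strand. The Ccnb2 window holds 3 CCAAT boxes in the same orientation before the start and TTTGAA on both sides of them. The Bub1 window holds CCAAT on each strand and neither CHR form, which says only that these letters are not in these 300 bases.

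Total counts were 40167255 to 44341263 per library at high pressure, 31843739 to 38288861 at low pressure and 18837343 to 21955244 in the stages. Low pressure replicate 3 had counts for 14637 genes, against 16509 to 16726 in the other 5 cultured libraries. It also departed from its group over genes at large, not only over members. The chi-square per degree of freedom between counts of 2 libraries was 84.6 and 86.9 against low pressure replicates 1 and 2. Between replicates 1 and 2 it was 12.4 (genes with at least 20 counts in the pair). The share of counts from 85 ribosomal protein genes was 3.22% ± 0.151 at high and 2.10% ± 0.147 at low pressure (SD, n = 3 each). In the stages it was 3.59%, 4.02% and 4.36% in the replicate 1 libraries and 1.77% to 2.24% in all others. All 9 lung markers, among them Nkx2-1, Foxf1, Tbx4 and Sftpc, were detected in every group.

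The mitosis genes were expressed in all 5 groups. Their summed level was 6290 ± 376 CPM at E12.5, 6334 ± 173 CPM at E13.5 and 6223 ± 145 CPM at E14.5, and in culture 5239 ± 222 CPM at high and 4622 ± 173 CPM at low pressure (SD, n = 3 each). CPM stand for counts per 1000000 counts of the library after TMM scaling, and the members held 0.621% to 0.633% of all counts in the stages, 0.525% at high and 0.461% at low pressure. Per kilobase of exon and averaged over the 5 groups, the topoisomerase Top2a, which untangles sister chromatids, stood highest at 111 CPM per kb. It was followed by the cyclins Ccna2 at 76.0, Ccnb1 at 65.7 and Ccnb2 at 63.1 CPM per kb, whose proteins bind and activate Cdk1. That order held in each of the 3 stages, while in both culture groups Plk1 came second, at 68.5 ± 7.20 CPM per kb at high and 75.5 ± 41.1 CPM per kb at low pressure (SD, n = 3 each). At low pressure this rank rested on replicate 3, since Plk1 had 111, 117 and 270 CPM in replicates 1, 2 and 3. In replicates 1 and 2 of low pressure Ccna2 stood above Plk1 per kb. The lowest were Cdca8 at 9.73 and the outer kinetochore gene Ndc80 at 7.92 CPM per kb. Exon length here is the union of all annotated exons of a gene, such as 1531 bases for Ccnb2 and 8390 for Mad2l1. It is not the length of the transcripts expressed, so this order depends on the annotation and is not a ranking of transcript abundance.

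High was compared with low pressure to ask what the mitosis genes did when lungs of the same starting stage were held at different pressure for 48 h. At high pressure 11 members were higher and 1 was lower, and 20 did not pass (edgeR quasi-likelihood test, Benjamini-Hochberg adjusted p under 0.05 over 14937 genes). The higher members were Cdc20, Cdca8, Birc5, Ccnb2, Aurkb, Ube2c, Prc1, Aurka, Kif23, Cdk1 and Bub1b, with log2 fold changes of 0.37 to 0.80, and the lower one was Bub1 at -0.53. The called share was 37.5% of members, against a background of 26.1% of all genes tested. By direction, 34.4% of members were higher against 14% of all genes, and 3.12% were lower against 12.2%. The median log2 fold change was 0.24 over the 32 members and 0.01 over all genes, with 28 members positive and 4 negative.

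The count moved with single libraries. Without high pressure replicate 1, 8 members passed (25% of members, against 15.9% of all genes), without replicate 2 of that group 3 passed (9.38%, against 1894 of 15177 genes, a larger share) and without replicate 3 of it 6 passed (18.8%, against 13.2%). Without low pressure replicate 1, 7 members passed (21.9%, against 19.3%), without replicate 2 of that group 5 passed (15.6%, against 17.3%) and without replicate 3 of it 19 passed (59.4%, against 41.1%). The share of members was thus near or below that of all genes in 3 of these 6 fits. The 19 held the first 12 and 7 others (Ccnb1, Plk1, Incenp, Mad2l1, Cenpa, Nuf2 and Kif20a, at 0.22 to 0.46 on the log2 scale). Offsets for GC content and length left 11 members higher and 0 lower (34.4%, against 18.5% of all genes), of which 7 were among the first 12 and 4 were new (Cenpf, Nusap1, Anln and Top2a). A single fit over all 15 libraries called 0 members, against 7.5% of all genes, with log2 fold changes of 0.80 for Cdc20, 0.62 for Cdca8 and 0.62 for Birc5 (edgeR adjusted p = 0.436, 0.576 and 0.201). The SEs of these 3 genes were 0.605, 0.641 and 0.286 there, larger than in the fit of the cultured libraries alone. The single fit estimates its spread over the fresh libraries as well.

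**Figure D1:**
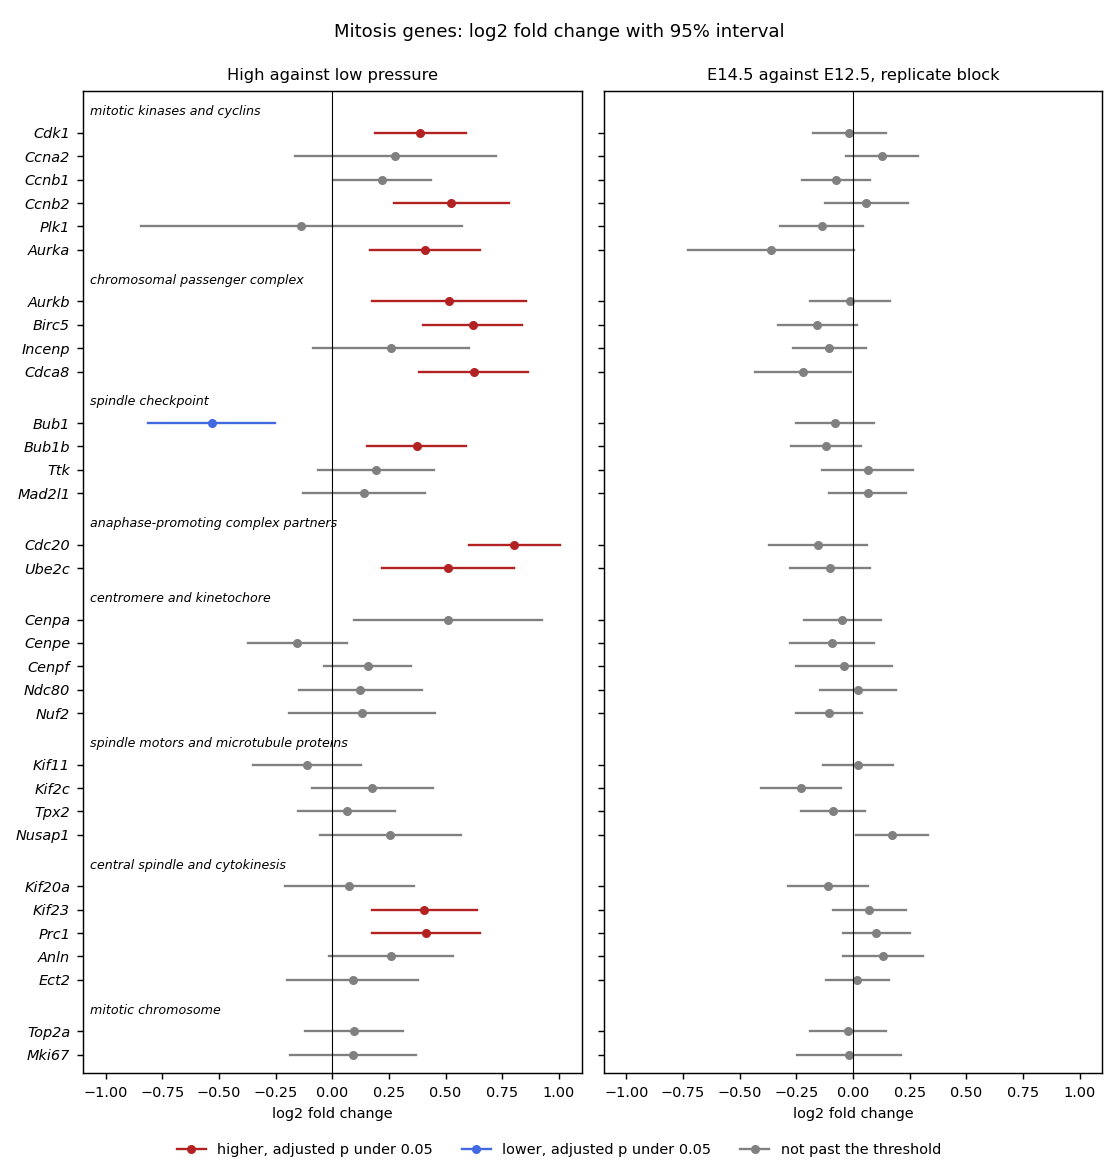
Log2 fold change (points) with its 95% interval (lines) for each of the 32 mitosis genes, grouped by role, for high against low pressure (left) and for E14.5 against E12.5 with the replicate number as a block (right). The 11 red points lie above 0 at high pressure and the blue point, Bub1, lies at -0.53, while all points of the stage comparison are grey and lie between -0.36 and 0.17.

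Of the 6 mitotic kinases and cyclins, 3 were higher. Ccnb2, a B-type cyclin, had 101, 102 and 94.6 CPM in high pressure libraries, against 66.6, 61.3 and 79.1 CPM in low pressure libraries. Each high pressure library lay above each low pressure library, with a log2 fold change of 0.53 ± 0.111 (SE) and an edgeR adjusted p of 0.0107. With the offsets for GC content and length it was 0.15 and did not pass (edgeR adjusted p = 0.601). Cdk1, the kinase that drives mitotic entry, had 260.0, 292 and 263 CPM at high and 208, 199 and 216 CPM at low pressure, again without overlap (0.39 ± 0.0876, edgeR adjusted p = 0.0137). Aurka, a centrosome kinase needed for spindle assembly, had 56.5, 58.0 and 49.5 CPM at high and 42.6, 38.4 and 42.5 CPM at low pressure (0.41 ± 0.107, edgeR adjusted p = 0.0245). Its libraries did not overlap, but the call was lost with those offsets, at 0.15, and with the replicate number as a block, at 0.41. Ccnb1 also had no overlap, with 215, 243 and 212 CPM at high and 182, 186 and 206 CPM at low pressure, and did not pass (edgeR adjusted p = 0.12). Plk1, a kinase that acts from mitotic entry to cytokinesis, had 151, 168 and 135 CPM at high and 111, 117 and 270.5 CPM at low pressure. The high value of low pressure replicate 3 set its fold change: it was -0.14 on the log2 scale with that library (edgeR adjusted p = 0.782) and 0.41 without it (edgeR adjusted p = 0.00573).

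The chromosomal passenger complex corrects faulty attachments of chromosomes to the spindle and later guides cytokinesis, and 3 of its 4 genes were higher. Cdca8, which encodes borealin (gene at chr4:124918465-124939311, minus strand), had 57.9, 51.5 and 50.3 CPM at high and 33.0, 34.2 and 36.5 CPM at low pressure. Birc5, which encodes survivin (gene at chr11:117849251-117855743, plus strand), had 95.7, 96.6 and 99.9 CPM at high and 59.6, 60.5 and 70.1 CPM at low pressure. Both genes separated the groups without overlap, by 0.62 ± 0.106 for Cdca8 and 0.62 ± 0.0955 for Birc5 on the log2 scale (edgeR adjusted p = 0.00445 and 0.00309). Aurkb, the kinase of the complex, had 88.6, 80.1 and 84.3 CPM at high and 49.5, 53.8 and 73.8 CPM at low pressure. Low pressure replicate 3 stood closest to the high pressure libraries (0.51 ± 0.149, edgeR adjusted p = 0.0357), and the call was lost with the offsets for GC content and length, at 0.25. The scaffold Incenp had 146, 144 and 133 CPM at high and 99.8, 105 and 149 CPM at low pressure, and low pressure replicate 3 was the highest of the 6 (0.26 on the log2 scale, edgeR adjusted p = 0.236). Without that library Incenp was at 0.46 and passed (edgeR adjusted p = 0.000871), and with the offsets it was at 0.07 and did not (0.805).

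The anaphase-promoting complex tags proteins for destruction, and both of its partners on the list were higher. Cdc20, its mitotic activator (gene at chr4:118432901-118437352, minus strand), showed the largest positive fold change of the 32 members. It had 90.3, 92.5 and 87.6 CPM at high pressure, against 53.4, 52.9 and 48.7 CPM at low pressure. The log2 fold change was 0.80 ± 0.0881, which is 74.3% more (edgeR adjusted p = 0.00101). With offsets for GC content and length it was 0.37 ± 0.0851 (edgeR adjusted p = 0.0216). Ube2c, the enzyme that hands ubiquitin to the complex, had 44.8, 57.7 and 46.4 CPM at high and 33.6, 33.5 and 37.5 CPM at low pressure (0.51 ± 0.128, edgeR adjusted p = 0.0206), and was not called with those offsets, at 0.19. Of the 14 subunits of the complex itself, 2 were higher and 3 were lower. Anapc5 averaged 557 ± 11.4 CPM at high and 402 ± 53.2 CPM at low pressure, and Anapc1 averaged 494 ± 15.6 CPM at high and 650 ± 5.94 CPM at low pressure (SD, n = 3 each).

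The spindle checkpoint holds anaphase back until every chromosome is attached, and its 4 members were split. Bub1, a checkpoint kinase (gene at chr2:127801122-127831865, minus strand), was the lower member, with 40.3, 35.6 and 34.1 CPM at high and 54.1, 58.3 and 46.5 CPM at low pressure. All high pressure libraries lay below all low pressure libraries (-0.53 ± 0.123, edgeR adjusted p = 0.0152), and the call was lost with the offsets for GC content and length, at -0.35 (edgeR adjusted p = 0.0689). Bub1b, which encodes the inhibitor BubR1, had 157, 157 and 135 CPM at high and 113, 123 and 111 CPM at low pressure (0.37 ± 0.0961, edgeR adjusted p = 0.023). The kinase Ttk had 86.3, 77.2 and 89.98 CPM at high and 77.8, 79.4 and 64.5 CPM at low pressure. Mad2l1, which binds and restrains Cdc20, had 78.9, 90.4 and 76.4 CPM at high and 71.0, 67.0 and 85.0 CPM at low pressure. The libraries of Ttk and of Mad2l1 overlapped between the pressures, and neither gene passed, at 0.19 and 0.14 on the log2 scale (edgeR adjusted p = 0.232 and 0.419). With the offsets for GC content and length they were at 0.32 and 0.40 and did not pass (0.0559 and 0.0914). Bub3, a checkpoint partner of Bub1 and Bub1b that was not one of the 32, averaged 186 ± 7.71 CPM at high and 119 ± 2.83 CPM at low pressure (SD, n = 3 each), with a log2 fold change of 0.65 ± 0.0808 and an edgeR adjusted p of 0.00143.

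**Figure D2:**
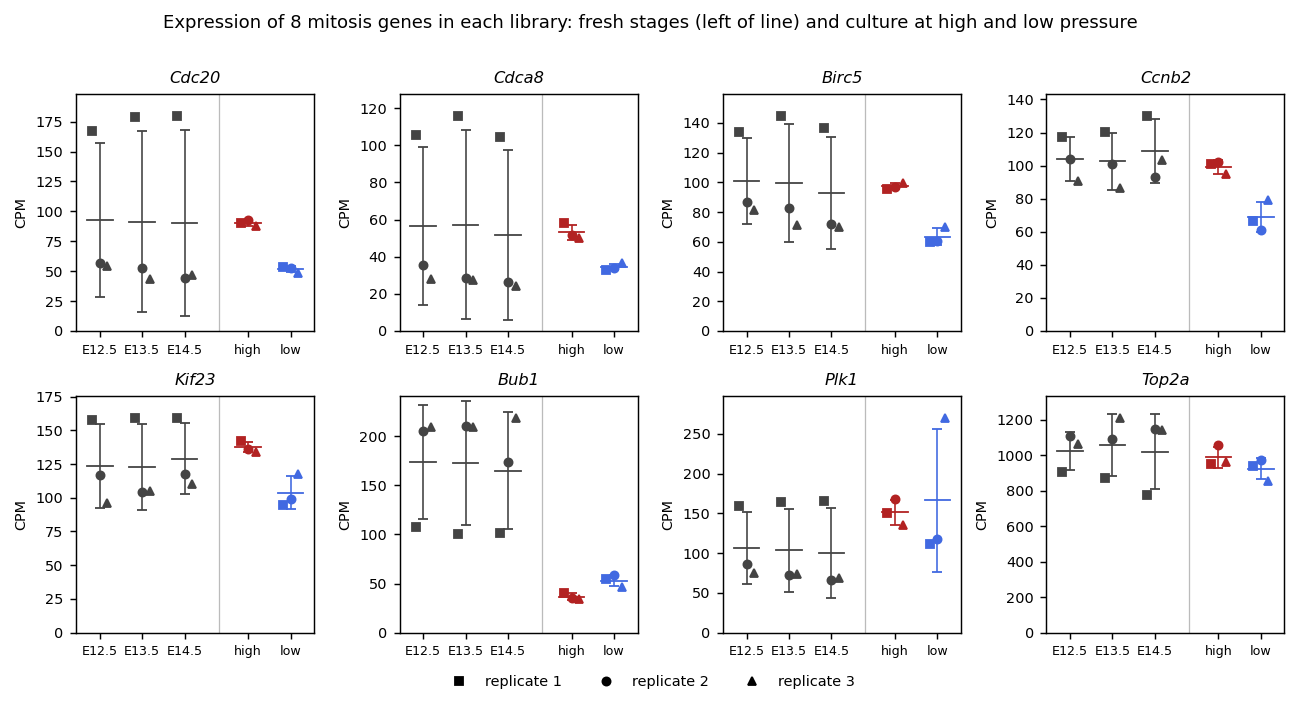
CPM of 8 mitosis genes in each of the 15 libraries, with replicates as squares, circles and triangles, horizontal bars for the mean and error bars for the SD (n = 3); stages stand left of the grey line in order of age, then high and low pressure. The squares of replicate 1 stand apart in every stage for Cdc20, Cdca8, Birc5, Kif23, Bub1, Plk1 and Top2a, and the triangle of low pressure replicate 3 stands apart for Plk1.

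None of the 5 centromere and kinetochore genes passed. Cenpa, the histone variant that marks the centromere, came nearest, with 60.7, 70.6 and 65.1 CPM at high and 55.3, 49.7 and 32.7 CPM at low pressure and no overlap (0.51 ± 0.182, edgeR adjusted p = 0.0693). The fold changes of Cenpf, Ndc80 and Nuf2 were 0.12 to 0.16 and that of the motor Cenpe was -0.15 on the log2 scale. With the offsets for GC content and length Cenpf was at 0.48 and passed (edgeR adjusted p = 0.0106), Ndc80 and Nuf2 were at 0.28 and 0.31 and Cenpe was at 0.06. Nuf2 passed without low pressure replicate 3, at 0.29 (edgeR adjusted p = 0.0408). None of the 4 spindle motors and microtubule proteins passed either: Kif11, the motor that pushes spindle poles apart, was at -0.11 and Kif2c, Tpx2 and Nusap1 were at 0.06 to 0.26. The 95% interval of Kif11 ran from -0.35 to 0.129 and spanned 0. With the offsets Nusap1 was at 0.36 and passed (edgeR adjusted p = 0.0402), and Kif11 turned positive, at 0.12. With the offsets and without low pressure replicate 3, a setting chosen after the data were seen, Kif11 was at 0.30 and passed (edgeR adjusted p = 0.00754).

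Cytokinesis genes build the central spindle and the contractile ring, and 2 of 5 were higher. Kif23, the motor of the centralspindlin complex, had 142, 136 and 134 CPM at high and 94.9, 99.0 and 117 CPM at low pressure (0.41 ± 0.101, edgeR adjusted p = 0.02). Prc1, which bundles the microtubules of the central spindle, had 193, 221 and 196 CPM at high and 138, 151 and 169 CPM at low pressure (0.41 ± 0.105, edgeR adjusted p = 0.0218). Neither gene had overlapping groups. The ring scaffold Anln did not overlap either and missed the threshold, at 0.26 (edgeR adjusted p = 0.145), but with the offsets for GC content and length it was at 0.53 and passed (edgeR adjusted p = 0.00985). Without the offsets the cytokinesis gene Ect2 and the motor Kif20a were at 0.09 and 0.08 on the log2 scale. Top2a had 947, 1056 and 959.6 CPM at high and 941, 974 and 857 CPM at low pressure, and the proliferation marker Mki67 had 453, 348 and 397 CPM at high and 340.1, 372 and 412 CPM at low pressure. Both overlapped, with 95% intervals of -0.121 to 0.313 for Top2a and -0.184 to 0.368 for Mki67 on the log2 scale. With the offsets Top2a was at 0.34, outside that interval, and passed (edgeR adjusted p = 0.0347), and Mki67 was at 0.25 and did not (0.173).

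In all, 16 members had every high pressure library above every low pressure library, against 25% of all genes, and Bub1 alone had every one below, against 21.8%.

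Wider lists hold other genes of the cell cycle. Of 98 other mitosis genes, 23 were higher and 7 were lower, a called share of 30.6% against the 26.1% of all genes, with a median log2 fold change of 0.15. The chromokinesin Kif22 averaged 102 ± 1.80 CPM at high and 63.0 ± 2.59 CPM at low pressure, and the spindle protein gene Psrc1 averaged 67.8 ± 4.81 CPM at high and 35.7 ± 4.24 CPM at low pressure (SD, n = 3 each). Of 15 regulators of G2/M transcription 1 was higher, E2f4 at 0.43, and the activators Foxm1 at -0.04 and Mybl2 at 0.05 did not pass. Of 52 genes of DNA replication and the G1/S step, 5 were higher, such as the helicase subunit Mcm7 at 0.39, and 5 were lower, such as the histone mRNA binding protein Slbp at -0.74. Among 5 G1 cyclins and kinases 1 was lower, Ccnd2 at -0.41. Cell cycle inhibitors were higher in 5 of 13 and lower in 1: Cdkn1a, the p53 target that blocks cyclin-dependent kinases, averaged 175 ± 18.9 CPM at high and 59.4 ± 5.66 CPM at low pressure (SD, n = 3 each), and Ccng2 averaged 197 ± 44.7 CPM at high and 405 ± 7.87 CPM at low pressure.

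Markers of cell types moved with pressure beside these genes. The summed level of the 9 lung markers was 1443 to 1549 CPM at high and 949 to 1110 CPM at low pressure, with 6 higher and 2 lower. The 7 mesenchyme markers summed to 9244 to 11564 CPM at high and 7107 to 8192 CPM at low pressure, with 2 higher and 2 lower. The 5 mesothelium markers summed to 392 to 515 CPM at high and 284 to 303 CPM at low pressure, with 3 higher. The 6 endothelium markers went the other way, with 86.9 to 195 CPM at high and 197 to 305 CPM at low pressure and 2 lower. Summed smooth muscle, red cell, leukocyte, heart and neural markers overlapped between the pressures, with 2 of 6 smooth muscle and 2 of 8 tested red cell markers lower, 2 of 7 leukocyte markers higher and no heart or neural marker called. No lung, mesenchyme, mesothelium or endothelium marker was at 0 in either group, and the part of these markers, of pool size and of the ribosomal protein share in the mitosis gene result was not tested.

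In the embryo the stages were compared to ask how the mitosis genes moved over the days in which the explants were cultured. In the main fit no member was called in any stage comparison: 0 of 32 for E13.5 against E12.5, for E14.5 against E13.5 and for E14.5 against E12.5, where 0% of the 14242 genes tested by edgeR passed in each. The outermost ends of the members' 95% intervals there were -1.858 and 1.893, -2.021 and 1.746, and -2.003 and 1.749 on the log2 scale. For E14.5 against E12.5 the interval of Nuf2 was narrower, from -0.363 to 0.149. These 0 calls thus do not show that all members held steady. At an unadjusted p under 0.05 the edgeR fit gave 0 members in each, against 123, 977 and 1328 of all genes, and DESeq2 called 0 members in each, against 0, 270 and 457 genes. With the replicate number as a block, edgeR called 0 members in each, against 0.00702%, 6.01% and 11% of all genes, and 0, 2 and 3 members had an unadjusted p under 0.05. In that fit of E14.5 against E12.5 the members lay between -0.36 and 0.17 on the log2 scale, and the outermost ends of their 95% intervals were -0.728 and 0.332. Their median size of change was 0.0901, against 0.170 over all genes, which were not matched to the members for expression level. In the test of whether the change over the second day differed from that over the first, edgeR called 0 members with the block (against 0.0211% of all genes) and 0 without it (0%), and 0 had an unadjusted p under 0.05.

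Aurka had the most negative fold change. It had 87.5, 69.4 and 56.7 CPM at E12.5, 82.4, 40.4 and 62.5 CPM at E13.5 and 80.4, 44.9 and 45.6 CPM at E14.5, and the stages overlapped. Between E14.5 and E12.5 its log2 fold change with the block was -0.36 ± 0.159 (edgeR adjusted p = 0.185). Kif2c, which removes faulty microtubule attachments, had 121, 101 and 87.4 CPM at E12.5, 125, 92.4 and 87.3 CPM at E13.5 and 102, 76.5 and 85.0 CPM at E14.5. Its fold change of -0.23 ± 0.0812 had the smallest adjusted p of the members (edgeR with the block, 0.0919). Nusap1, a spindle microtubule binding protein, had 101, 124 and 120.4 CPM at E12.5, 89.2, 125 and 126 CPM at E13.5 and 113, 134 and 143 CPM at E14.5 (0.17 ± 0.0729, edgeR adjusted p with the block = 0.148). Anln had 166, 182 and 165 CPM at E12.5, 147, 193 and 195 CPM at E13.5 and 163, 207 and 196 CPM at E14.5. Ccna2 had 287, 367 and 355 CPM at E12.5, 284, 354 and 424 CPM at E13.5 and 309, 379 and 419 CPM at E14.5. Replicate 1 was the lowest library of every stage in Ccna2 and of the later stages in Anln, and the stages overlapped in both genes. Bub1b was the member whose E14.5 libraries all lay below its E12.5 libraries, with 228, 225 and 219 CPM at E12.5, 215, 225 and 233 CPM at E13.5 and 212, 191 and 216 CPM at E14.5, against 5.33% of all genes. With both the block and the offsets for GC content and length, 4 of 32 members were lower at E14.5 than at E12.5 (Birc5 at -0.24, Cdca8 at -0.29, Nuf2 at -0.20 and Kif2c at -0.31). This is near the share of all genes, of which 1650 of 14150 were lower. In that fit 1 of 32, Kif2c, was lower at E14.5 than at E13.5, a smaller share than that of all genes called. Over all genes the calls for E14.5 against E12.5 were 1062 higher and 1650 lower, against 1044 higher and 517 lower with the block alone.

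Over the first day, between E13.5 and E12.5 the 6 largest without the block were Aurka, Ttk, Ube2c, Nuf2, Ccna2 and Cdk1, at -0.20 to 0.13 on the log2 scale. Ttk had 94.9, 104 and 104 CPM at E12.5, 89.9, 121 and 122 CPM at E13.5 and 82.6, 110.4 and 129.6 CPM at E14.5. Ube2c had 132, 110.3 and 91.9 CPM at E12.5, 129, 90.4 and 93.7 CPM at E13.5 and 137, 90.9 and 87.3 CPM at E14.5. The libraries of the stages overlapped in both genes. Nuf2, an outer kinetochore gene, had 128, 129 and 115 CPM at E12.5, 120.3, 117 and 112 CPM at E13.5 and 117, 113 and 115 CPM at E14.5. Cdk1 had 342, 200.3 and 179.7 CPM at E12.5, 331, 189 and 167 CPM at E13.5 and 357, 175 and 189.7 CPM at E14.5. Replicate 1 of Cdk1 was the highest library of every stage. Over the second day, between E14.5 and E13.5, the 6 largest were Kif2c, Nusap1, Cenpe, Cdca8, Kif20a and Bub1b, at -0.21 to 0.19. Cenpe, the motor that carries chromosomes to the spindle equator, had 197, 176 and 164 CPM at E12.5, 191, 172 and 195 CPM at E13.5 and 158, 174 and 170.2 CPM at E14.5. Kif20a had 263, 160.2 and 134 CPM at E12.5, 278, 139.8 and 152 CPM at E13.5 and 259, 130.4 and 133 CPM at E14.5. In Cenpe the replicates lay close together, and in Kif20a replicate 1 stood far above the others in all 3 stages.

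Replicate 1 of every stage stood apart from replicates 2 and 3, by a median of 0.526 over the members on the log2 CPM scale. Cdca8 had 106, 35.7 and 28.2 CPM at E12.5, 116, 28.4 and 27.3 CPM at E13.5 and 105, 26.4 and 24.1 CPM at E14.5. Cdc20 had 167, 56.9 and 53.9 CPM at E12.5, 179, 52.5 and 43.1 CPM at E13.5 and 179.9, 43.9 and 46.5 CPM at E14.5. In both genes the first library of each stage held several times the level of the others, at a mean difference of 1.94 for Cdca8 and 1.83 for Cdc20 on the log2 CPM scale. Aurkb and Plk1 were higher in replicate 1 by 1.15 each, Kif20a by 0.92 and Cdk1 by 0.91. Others were lower in it, with mean differences of -1.05 for Ect2, -0.98 for Bub1, -0.85 for Mad2l1 and -0.58 for Kif11. Bub1 had 107, 206 and 209 CPM at E12.5, 99.99, 209.8 and 209 CPM at E13.5 and 102, 174 and 219 CPM at E14.5. Over all 3 stages 18 members had replicate 1 above replicates 2 and 3, against 36.7% of all genes, and 9 had it below, against 31.2%. Over all genes the median size of the difference was 0.488, so this spread was not limited to mitosis genes. Across the 32 members the difference was more positive at higher GC content of the exons (Spearman correlation 0.79, and 0.53 across all genes), given as a description, since all values come from the same libraries.

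**Figure D3:**
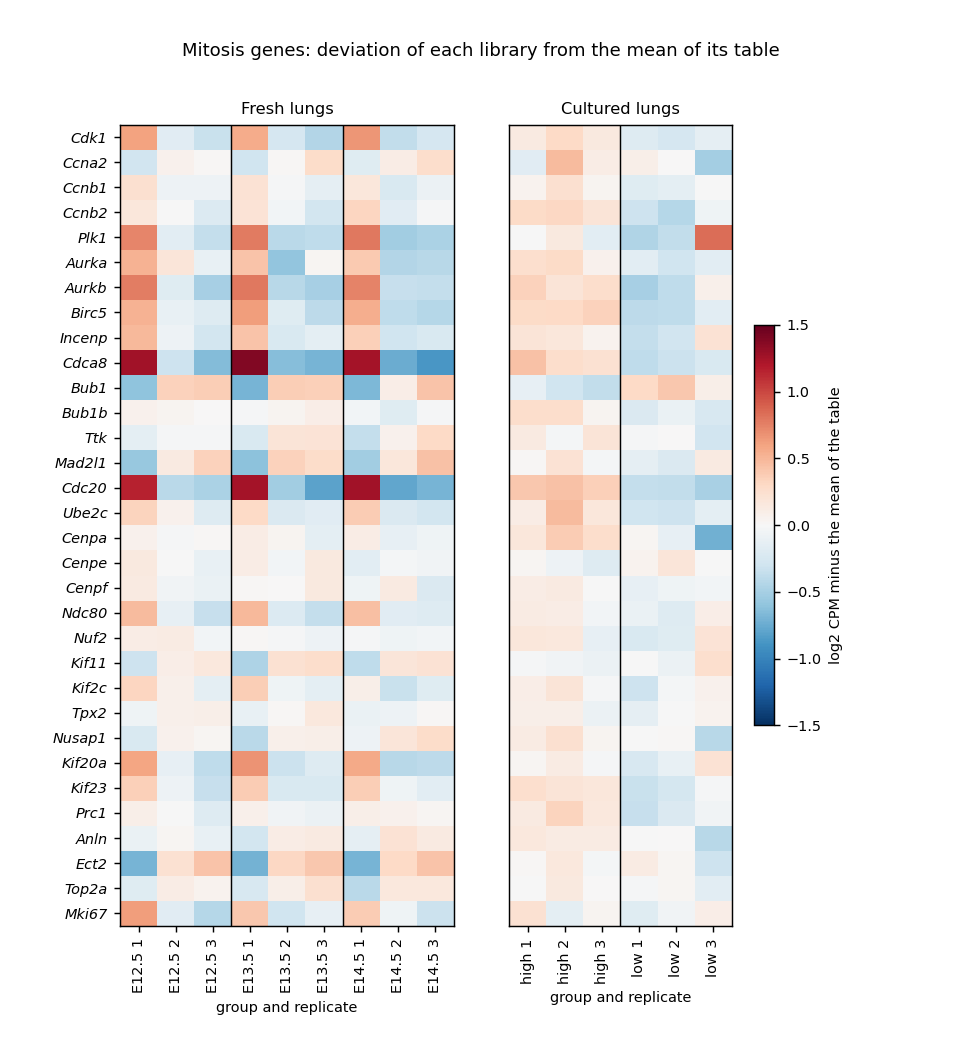
Log2 CPM of the 32 mitosis genes in each library minus the gene's mean over its table, for the 9 fresh libraries (left, by stage and replicate) and the 6 cultured libraries (right, high then low pressure). Replicate 1 of each stage is red for Cdca8, Cdc20, Plk1 and Aurkb and blue for Bub1, Mad2l1 and Ect2, and the high pressure libraries are redder than the low pressure libraries for most rows.

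The members that stood out in replicate 1 and those that differed between the pressures were partly the same. The sign of the difference was the same in 22 of the 32 members. Across members, the high against low log2 fold change and the replicate 1 difference had a Pearson's r of 0.58 and a Spearman correlation of 0.46, and across all 14017 genes in both tables a Pearson's r of 0.45 and a Spearman correlation of 0.50. The high against low fold change of members also followed the GC content (Spearman correlation 0.55, and 0.30 across all genes) and, with the opposite sign, the exon length (Spearman correlation -0.40, and -0.27 across all genes). Genes are not independent replicates, and these figures describe these libraries. Offsets for GC content and length brought Cdc20 to 0.37 and left Cdca8 at 0.58 and Birc5 at 0.53 on the log2 scale, with all 3 still past the threshold.

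**Figure D4:**
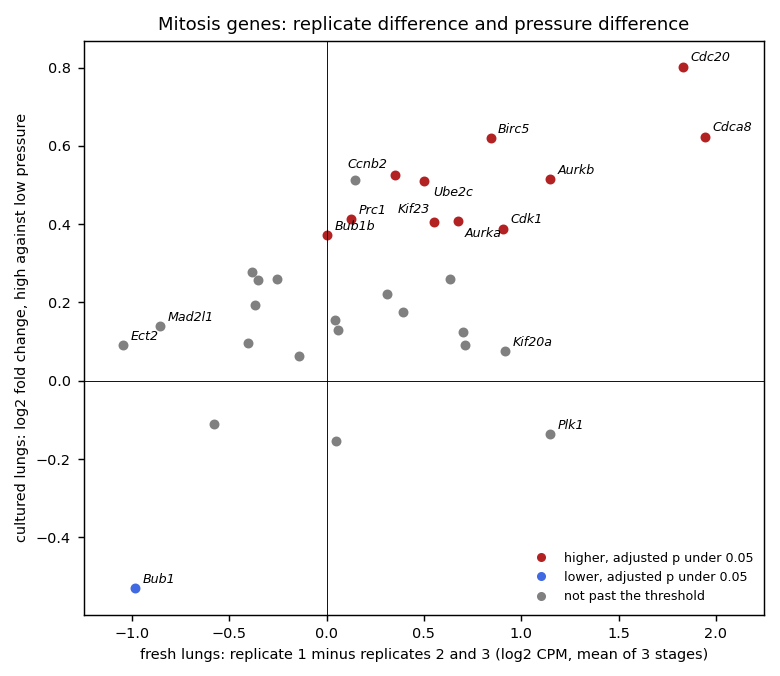
Each point is a mitosis gene, with the mean difference of replicate 1 from replicates 2 and 3 in fresh lungs on the x axis (log2 CPM, mean of 3 stages) and the log2 fold change of high against low pressure in cultured lungs on the y axis. Cdc20 and Cdca8 lie at the upper right, at 1.83 and 1.94 on the x axis, Bub1 lies at the lower left, and Plk1 is high in replicate 1 and at -0.14 between the pressures.

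Set side by side on a common scale, with no test because the cultured and fresh libraries stand in separate tables and share no group, 12 of the 32 members were lower in all 6 cultured than in all 9 fresh libraries, against 11.7% of all genes. No member was higher in all cultured libraries, against 12.6% of all genes. The 12 were Ccnb1, Bub1, Bub1b, Mad2l1, Ube2c, Ndc80, Nuf2, Kif11, Tpx2, Nusap1, Anln and Ect2. Bub1 averaged 36.5 CPM at high and 52.9 CPM at low pressure, against 164 to 175 CPM in the stages. Ube2c averaged 49.5 CPM at high and 34.8 CPM at low pressure, against 104 to 112 CPM in the stages, and Mad2l1 averaged 81.6 CPM at high and 74.3 CPM at low pressure, against 193 to 200 CPM. Cdc20 averaged 89.8 CPM at high and 51.6 CPM at low pressure, against 89.2 to 92.3 CPM in the stages, whose libraries ranged from 43.5 to 177 CPM. Culture, sequencing depth and table cannot be told apart in these levels.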

How the data were processed

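RNA of 15 libraries in 5 groups of 3 was measured by sequencing. Per the submitters' processing notes, cutadapt 1.6, Bowtie 1.1.1, TopHat, HTSeq and DESeq2 were used, on genome build mm10; for the annotation, filters and strand setting the sources used here give nothing. Without the strand setting, reads of overlapping and antisense genes, and of near-identical copies, could not be told apart. The authors deposited 8 tables, and 2 were used: raw counts for 23420 genes in 6 cultured and in 9 fresh libraries. The other deposited tables hold rescaled or log2 values and were not used.

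Each count table was fitted by itself, over all its genes, in edgeR 4.0.16 under R 4.3.3 (TMM, filterByExpr by group, robust quasi-likelihood F-test, Benjamini-Hochberg adjustment over all genes tested, threshold 0.05). SEs are the log2 fold change over the square root of the F statistic, and intervals are 95%. Replicate differences use log2 CPM with a prior count of 2. Levels set across the tables use TMM over all 15 libraries. Exon length, GC content and gene positions come from GENCODE M21 on GRCm38 (98.4% of symbols matched). Alternatives used DESeq2 1.42.0, size factors, no filter, offsets for GC content and length from mgcv 1.9.3, a replicate block, a batch term for replicate 1, and left-out libraries. The test was also run on simulated counts with a fixed spread and a fixed size of change. These libraries differ from that setting, so the run does not vouch for the calls given here. Depth was 18837343 to 44341263 counts per library, and no correction was made for PCR duplicates.

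In the stages same-numbered libraries deviated together from their group means (r of 0.397 to 0.838 over 9 pairs, against -0.736 to 0.625 over 18 other pairs). These values set replicate 1 apart but did not tell replicates 2 and 3 from each other. Between stages, same-numbered pairs of replicates 2 or 3 had an r of 0.397 to 0.606. Replicate 2 with replicate 3 had an r of 0.454 to 0.625. In culture the 3 same-numbered pairs had an r of -0.0124 to 0.0461. The main fits had no replicate block, and the block was an alternative. Counts of 0 of 15 same-group pairs of libraries agreed within sampling noise. The member list, the other gene lists and the motifs were chosen with earlier results of these data known. All 32 members are accounted for; shown library by library are those past the threshold, or the 6 largest fold changes of a comparison where fewer passed, with others that complete a role. Of each other list, up to 4 genes with the smallest p may be named; Foxm1 and Mybl2 were chosen outside this rule, with their values known.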

Additional observations from a re-analysis of the deposited data

How the results depend on the processing

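For high against low pressure, the number of members called stayed within 1.5 times of 12 in the alternatives that follow. Other size factors gave 12 (37.5% of members, against 26.3% of all genes) and no filter gave 12 (37.5%, against 21%). DESeq2 gave 13 (40.6%, against 30.2%). The replicate block gave 11 (34.4%, against 21%), and Aurka lost its call. Offsets for GC content and length gave 11 (34.4%, against 18.5%). The number of members called was 0 in the single fit of all 15 libraries, where 1121 genes were called in place of 3905. It was 25 (24 higher, 1 lower, against 34.9% of all genes) with those offsets and without low pressure replicate 3. This last setting was chosen after seeing the data. Leaving out each library in turn gave 3 to 19 members and 1894 to 6257 genes. Birc5, Cdca8 and Cdc20 kept their call in 12 of 13 alternatives each, all but the single fit of 15 libraries. The other called members kept theirs in fewer. Ccnb2 kept it in 10, Cdk1 and Bub1b in 9, Bub1 and Prc1 in 8, Kif23 in 7, Aurkb and Ube2c in 6 and Aurka in 5. The replicate block gave 3137 genes, and the replicate numbers of the cultures share only a number.

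Over the stages 0 members were called in the main fit. Among the alternatives only the fit with both the offsets for GC content and length and the replicate block called any. It called 1 of 32 members for E14.5 against E13.5, against 1349 of 14150 genes. For E14.5 against E12.5 it called 4 of 32 members, against 2712 of 14150 genes. Genes called for E13.5 against E12.5 numbered 1 with the replicate block, 1 with the batch term, 2 with replicates 2 and 3 alone, 1 with the offsets and the block, and 17 with DESeq2 and the block. For E14.5 against E13.5 they numbered 856 with the replicate block, 808 with the batch term, 176 with replicates 2 and 3 alone, 1349 with the offsets and the block, 270 with DESeq2 and 1150 with DESeq2 and the block. For E14.5 against E12.5 they numbered 1561 with the replicate block, 1592 with the batch term, 1187 with replicates 2 and 3 alone, 31 with the offsets, 2712 with the offsets and the block, 9 without the filter, 457 with DESeq2, 1824 with DESeq2 and the block, and 0 to 3 when a library was left out. Over all comparisons, 68 of 77 alternatives gave a number of members called within 1.5 times of the main one. Most of these were stage fits with 0 against 0, so the pooled number says little about the pressure comparison. For high against low pressure the number was 12, 12, 13, 11, 11 and 8 in the alternatives within that range. In the others it was 0, 3, 5, 6, 7, 19 and 25.

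Uncalled members changed sign when a stage library was left out. For E13.5 against E12.5, Aurka ran from -0.47 to 0.026, Ube2c from -0.28 to 0.048, Ccna2 from -0.077 to 0.21 and Cdk1 from -0.44 to 0.27 on the log2 scale over these fits. For E14.5 against E13.5 Cdca8 ran from -1.18 to 0.90 and Kif20a from -0.53 to 0.25, and for E14.5 against E12.5 Cdca8 ran from -1.16 to 0.70. Leaving out replicate 1 of a single stage takes the library that stood apart out of that stage only. For Cdca8 these libraries had 116 CPM at E13.5 and 105 CPM at E14.5, against 24.1 to 28.4 CPM in replicates 2 and 3 of those stages. The part of this and of the fewer libraries was not tested. The lowest raw count of any member in any library was 447 (Cdca8, E14.5 replicate 3).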

Other observations

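Other cell cycle genes were read over the stages in the fit with the replicate block, in which no mitosis gene was called (edgeR, 11% of all genes called for E14.5 against E12.5; 0% without the block). Of 11 cell cycle inhibitors tested, 5 were higher at E14.5 than at E12.5 and 0 were lower. Cdkn2c, an inhibitor of the G1 kinases, averaged 9.31 ± 3.60 CPM at E14.5 and 4.74 ± 1.23 CPM at E12.5 (SD, n = 3 each; log2 fold change 0.93 ± 0.167 SE, edgeR adjusted p with the block = 0.00637). Ccng1, a p53 target, averaged 155 ± 60.4 CPM at E14.5 and 94.4 ± 21.9 CPM at E12.5 (0.66 ± 0.116, edgeR adjusted p with the block = 0.00808). Cdkn1b and Btg2 were higher by 0.33 ± 0.0721 and 0.47 ± 0.116 on the log2 scale. Of the 15 regulators of G2/M transcription 3 were called: the pocket proteins Rbl2 and Rbl1 were higher by 0.62 ± 0.125 and 0.24 ± 0.0690, and E2f5 was lower, at -0.56 ± 0.157. Of 52 genes of DNA replication and the G1/S step 2 were lower, Ccne1 at -0.40 ± 0.0757 and Gins3 at -0.44 ± 0.106. The 98 other mitosis genes had 0 calls in that fit, and the separase gene Espl1, whose product cuts the cohesin between sister chromatids, came nearest at -0.27 ± 0.0844 (edgeR adjusted p with the block = 0.0630). Beside these values the summed level of the 7 heart and striated muscle markers was 260 to 1168 CPM at E14.5 and 5.71 to 31.5 CPM at E12.5, and that of the 11 red cell markers was 521 to 1391 CPM at E14.5 and 2902 to 3586 CPM at E12.5, with 3 red cell markers at 0 in every group. The 6 endothelium markers summed to 618 to 742 CPM at E14.5 and 386 to 521 CPM at E12.5, and the 7 mesenchyme markers to 6102 to 6834 CPM at E14.5 and 4130 to 4735 CPM at E12.5. In that fit 5 heart, 5 endothelium, 4 mesenchyme, 2 smooth muscle, 2 mesothelium and 1 leukocyte markers were higher at E14.5, and 3 red cell and 1 lung markers were lower. The part of these markers was not tested.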
